A study of Mus musculus with 4 samples.

Results

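The Fc receptors described here are the proteins that bind the constant part of antibodies, and they were taken as every microarray probe whose gene name was Fcgr1, Fcgr2b, Fcgr3, Fcgr4, Fcer1g or Fcgrt. This gave 6 genes with 1 probe each, among the 39429 probes of the array. The study asked how the microRNA Mir195 changes gene expression in blood progenitors that cannot make the B cell factor EBF1. Lineage-negative (Lin-) cells from the fetal liver of Ebf1-/- mouse embryos, which carry the deletion in both groups, were infected with a retrovirus holding Mir195 or with the empty vector, called Mir195 and EMPTY here. Both were grown in a medium with SCF, IL-7 and Flt3-ligand at 10 ng/mL each, and the methods describe a feeder layer of OP9 bone marrow stroma cells. RNA came from bulk cultures, so fewer cells of a type and less RNA per cell cannot be told apart. There were 2 arrays per virus, and nothing in the labels says that the replicates came from separate embryos or cultures, so the p-values measure only the spread between these arrays.

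Receptors for IgG, named Fc gamma receptors, sit mainly on macrophages, neutrophils, mast cells, dendritic cells and NK cells. The activating ones, encoded in mice by Fcgr1, Fcgr3 and Fcgr4, need the gamma chain Fcer1g, a small signalling partner whose ITAM motif recruits the kinase Syk after Src family kinases such as Lyn have phosphorylated it. The inhibitory one, Fcgr2b, carries an ITIM motif that recruits the lipid phosphatase SHIP1, encoded by Inpp5d, and it is the Fc gamma receptor of B cells. Fcgrt encodes the heavy chain of the neonatal Fc receptor FcRn, which pairs with B2m and protects IgG from breakdown.

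All 6 probes gave lower mean values with Mir195, and for all 6 both Mir195 arrays lay below both EMPTY arrays, but none passed the test. The log2 fold changes ran from -0.55 for Fcgr3 to -0.17 for Fcer1g. The gaps between the viruses were 0.229 for Fcgr3, 0.168 for Fcgr4 and 0.153 for Fcgrt on the log2 scale, against 0.0253 for Fcgr1, 0.0166 for Fcer1g and 0.0141 for Fcgr2b. Among all 23723 tested probes, 14.4% had both Mir195 arrays below both EMPTY arrays and 23.4% had both above. With limma and Benjamini-Hochberg adjustment over the tested probes, 0 of the 6 were called at an adjusted p under 0.05, and so were 0% of all probes. At an unadjusted p under 0.05 the count was 1 of 6, the Fcgr3 probe, where 2.1% of all probes passed in the lower direction and 6.25% in the higher. The study named Fcgr1, Fcgr2b and Fcgr3 from these same arrays, so their direction is not independent evidence.

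The sequence that differed between the viruses was Mir195. The mature mouse form is shown for reference, with the seed at bases 2 to 8 in capitals, from RefSeq (GRCm38.p6, chr11:70235062-70235082, + strand). The insert of the vector was amplified from a human cell line's DNA, and its own sequence was not used here.
mmu-miR-195a-5p: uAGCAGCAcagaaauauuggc
The letters TGCTGCT, which pair with this seed, were in 0 of the 6 member probes and in 0.804% of all probes on the array. The transcripts' full sequences were not used here, so seed matches in the mRNAs of the receptors were not searched.

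For the activating receptors and Fcgr2b, the 90 bases before the transcription start are shown, because the activating genes held the motif GAGGAA there and the other members did not. The motif was chosen after these sequences were seen. GAGGAA, or TTCCTC on the other strand, is a form of the sites bound by PU.1, a transcription factor of myeloid and B cells. Its letters are in capitals. The shorter GGAA within it also occurs in the Fcgr2b window, so a missing GAGGAA does not mean that PU.1 sites are missing.
Fcgr1 (chr3:96293970-96294059, - strand): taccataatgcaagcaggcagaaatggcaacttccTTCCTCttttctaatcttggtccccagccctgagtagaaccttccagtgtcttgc
Fcgr3 (chr1:171059395-171059484, - strand): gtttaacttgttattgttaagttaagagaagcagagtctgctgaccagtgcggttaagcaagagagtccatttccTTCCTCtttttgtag
Fcgr4 (chr1:171018836-171018925, + strand): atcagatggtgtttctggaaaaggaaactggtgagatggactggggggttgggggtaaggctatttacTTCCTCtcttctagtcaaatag
Fcgr2b (chr1:170976072-170976161, - strand): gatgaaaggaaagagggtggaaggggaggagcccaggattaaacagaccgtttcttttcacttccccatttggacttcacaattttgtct
These are RefSeq sequences of build GRCm38.p6, each written 5′ to 3′ along its gene, and all 6 members had an entry. Searched on both strands of the 250 bases before the start, GAGGAA was found once in Fcgr1, Fcgr3 and Fcgr4 and not in Fcgr2b, Fcer1g or Fcgrt. It was in 23.3% of all 32851 promoters of that length, and in 8.93% when only the last 90 bases were searched. Counted by gene, as for the members, it was in 25.9% and 10.2% of 27025 genes. In the 3 activating genes it ended 50, 10 and 17 bases before the start, in the order Fcgr1, Fcgr3 and Fcgr4. For Fcgr3 this was read from 1 of its 2 listed starts. The longest run of letters that any member pair shared in the 250 bases was TTCCTTCCTCTTTT, 14 bases in Fcgr1 and Fcgr3, which spans the motif. That run was in the promoters of 3 of 27025 genes on either strand, and 2 of the 3 are Fcgr1 and Fcgr3 themselves. It was picked as the longest run shared by members, so its rarity carries no weight. The other pairs shared at most 9 bases. A match of letters is a description of the sequence and not evidence of binding.

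Each value is a log2 signal from which the array's own 75th percentile was subtracted, so that 0 is the level at that percentile. Levels of different probes are not comparable, so changes between arrays were read and not levels. A signal summed over a list follows its brightest probes. All 6 probes were well above background on all 4 arrays, and none had a saturated spot.

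**Figure D1:**
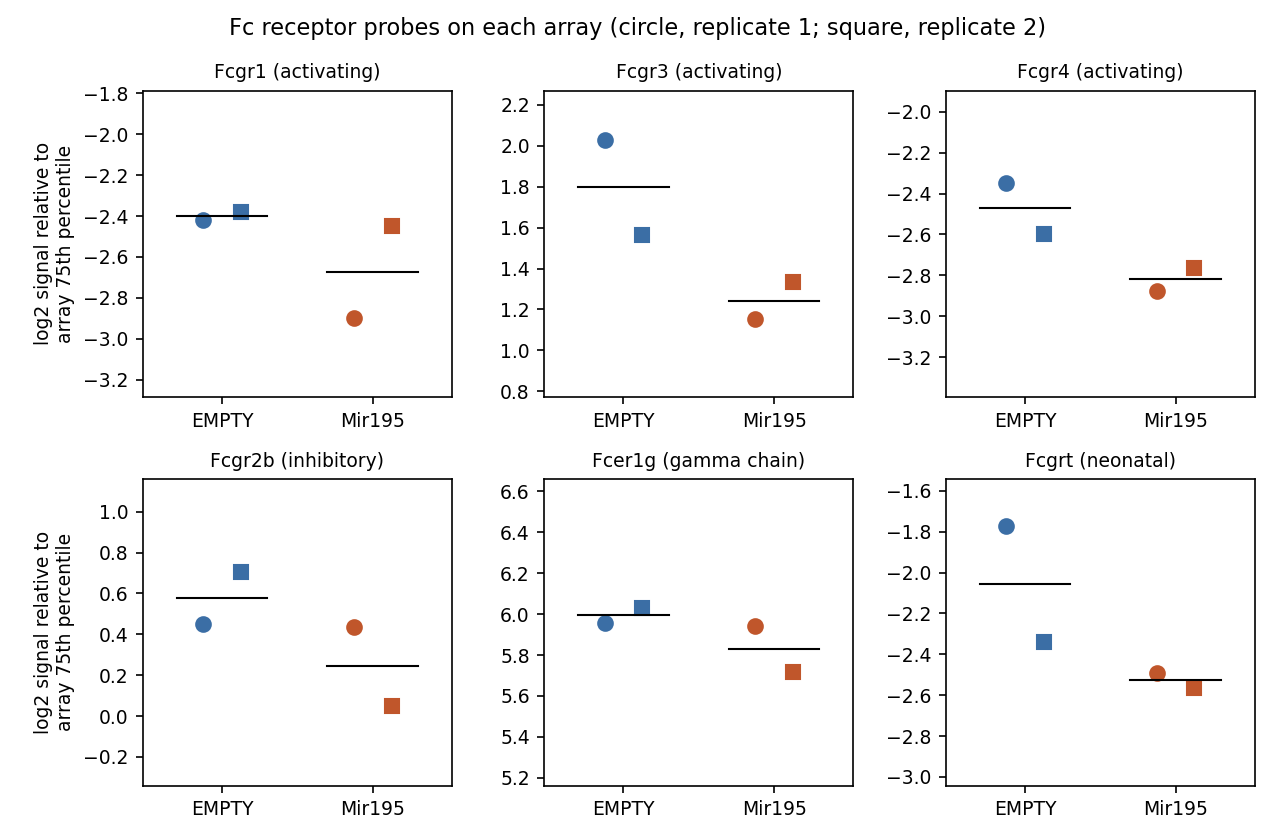
Log2 signal relative to each array's 75th percentile (vertical axis) for the 6 probes on the EMPTY arrays (blue) and the Mir195 arrays (orange); circles are replicate 1, squares replicate 2, bars the group means, and every panel spans the same range. Each panel has both orange points below both blue points, with gaps from 0.229 for Fcgr3 down to 0.0141 for Fcgr2b.

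Among the activating receptors, Fcgr3, the low-affinity receptor that NK cells also carry, had the largest change of the 6. It read 2.03 and 1.57 with EMPTY and 1.15 and 1.34 with Mir195. The groups were apart, and EMPTY 1 stood 0.466 above EMPTY 2. The log2 fold change was -0.55 (SE 0.20, 95% interval -1.07 to -0.04), a signal 1.47-fold lower, with an adjusted p of 0.578 and an unadjusted p of 0.0406 by limma. Without EMPTY replicate 1 the change was -0.32. The probe is shown because it lies in the part coding for the extracellular domains, where mouse Fcgr3 and Fcgr2b are closely alike.
Fcgr3 probe: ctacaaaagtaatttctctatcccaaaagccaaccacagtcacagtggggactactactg
Whether Fcgr2b RNA also binds this probe could not be tested without transcript sequences, so the Fcgr3 value may hold both. The Fcgr3 and Fcgr2b probes ordered the arrays differently, with EMPTY 1 highest for the first and EMPTY 2 for the second.

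Fcgr4, a receptor for IgG2a and IgG2b that is best known from monocytes and neutrophils, gave -2.35 and -2.60 with EMPTY and -2.87 and -2.77 with Mir195. The arrays fell in the same order as for Fcgr3, with EMPTY 1 highest and Mir195 1 lowest. The log2 fold change was -0.35 (SE 0.14, 95% interval -0.72 to 0.03) with an adjusted p of 0.632 by limma, and -0.22 without EMPTY replicate 1.

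Fcgr1 encodes the high-affinity IgG receptor of monocytes and macrophages. Its EMPTY arrays read -2.42 and -2.38 and its Mir195 arrays -2.90 and -2.45. Only Mir195 1 was clearly low, and Mir195 2 lay 0.0253 below the nearer EMPTY array. The log2 fold change of -0.27 (SE 0.19, 95% interval -0.76 to 0.21) had an adjusted p of 0.816 by limma. Leaving out Mir195 replicate 1 gave -0.05, and leaving out Mir195 replicate 2 gave -0.50. The groups overlapped under the normexp background correction, where the change was -0.08. Its spot was 4.86 to 7.04 times as bright as the local background over the 4 arrays. Fcgr4 and Fcgrt were similarly dim, at 5.52 to 8.33 and 4.8 to 9.49 times. Under normexp their changes also shrank, to -0.18 for Fcgr4 and -0.29 for Fcgrt.

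Fcgr2b, the inhibitory receptor, is the one member measured by 10 spots on every array. Their means were 0.45 and 0.71 with EMPTY and 0.43 and 0.05 with Mir195. EMPTY 1 and Mir195 1 were almost level, and Mir195 2 was the lowest. The log2 fold change was -0.33 (SE 0.19, 95% interval -0.82 to 0.16) with an adjusted p of 0.760 by limma. It came to -0.14 without Mir195 replicate 2 and to -0.53 without Mir195 replicate 1.

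The 10 spots show the spread among single spots within an array. Within an array the spots had an SD of 0.0712 to 0.0989 on the log2 scale, somewhat above the median of 0.0625 to 0.0688 over the 259 tested probes with as many spots. Averaged over the arrays of each virus, all 10 spot positions read lower with Mir195, by 0.291 to 0.386. These differences had an SD of 0.0344 over the positions, below the SD within an array. Part of the spread within an array thus repeated by position and is not noise alone. Array by array, 10 of 10 positions were lower in 3 of the 4 pairs of a Mir195 and an EMPTY array. In the other pair, Mir195 1 against EMPTY 1, 6 of 10 were lower and the mean difference was -0.0141, less than the SD of the spots. The 2 EMPTY arrays differed by 0.257 and the 2 Mir195 arrays by 0.383, both several times the spot SD. Spots of 1 array share its RNA, and so they carry no weight as replicates of the virus.

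**Figure D2:**
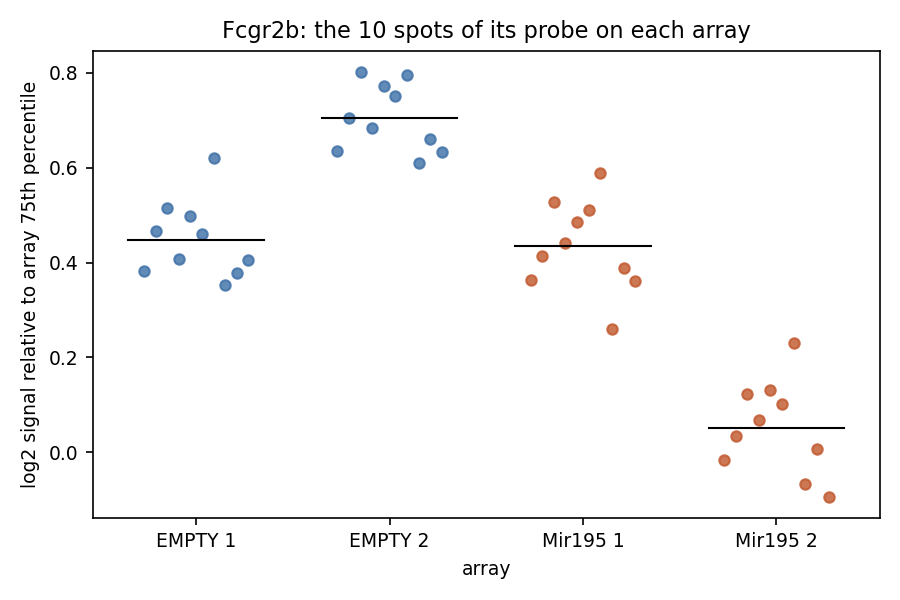
The 10 spots of the Fcgr2b probe on each array (points) and their mean (bar), as log2 signal relative to the array's 75th percentile (vertical axis), with the 4 arrays along the horizontal axis. EMPTY 1 and Mir195 1 overlap, with means of 0.45 and 0.43, EMPTY 2 lies higher at 0.71 and Mir195 2 lower at 0.05.

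Fcer1g, the gamma chain that the activating receptors share, had a strong processed signal of 48480 to 70030 on the 4 arrays. It read 5.96 and 6.03 with EMPTY and 5.94 and 5.72 with Mir195. Mir195 1 lay 0.0166 below EMPTY 1, and only Mir195 2 was clearly lower. The change was the smallest of the 6, at -0.17 (SE 0.14, 95% interval -0.52 to 0.19) with an adjusted p of 0.855 by limma. It was -0.05 without Mir195 replicate 2, and the groups overlapped in the authors' own normalized table, where Mir195 1 read 5.87 and EMPTY 1 5.84.

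Fcgrt, the heavy chain of FcRn, gave -1.77 and -2.34 with EMPTY and -2.49 and -2.56 with Mir195. The Mir195 arrays were within 0.0694 of each other, and the EMPTY arrays were 0.566 apart. The log2 fold change was -0.47 (SE 0.22, 95% interval -1.04 to 0.10) with an adjusted p of 0.673 by limma, and it was -0.19 without EMPTY replicate 1. Its probe is shown because this was the second largest change, and the probe lies in the coding part for the domain next to the membrane.
Fcgrt probe: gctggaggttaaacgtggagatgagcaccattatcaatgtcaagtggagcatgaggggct
The partner of FcRn, B2m, read 7.33 and 7.40 with EMPTY and 7.34 and 7.24 with Mir195. Its groups overlapped, and its log2 fold change was -0.07 (SE 0.12) with an adjusted p of 0.935 by limma.

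**Figure D3:**
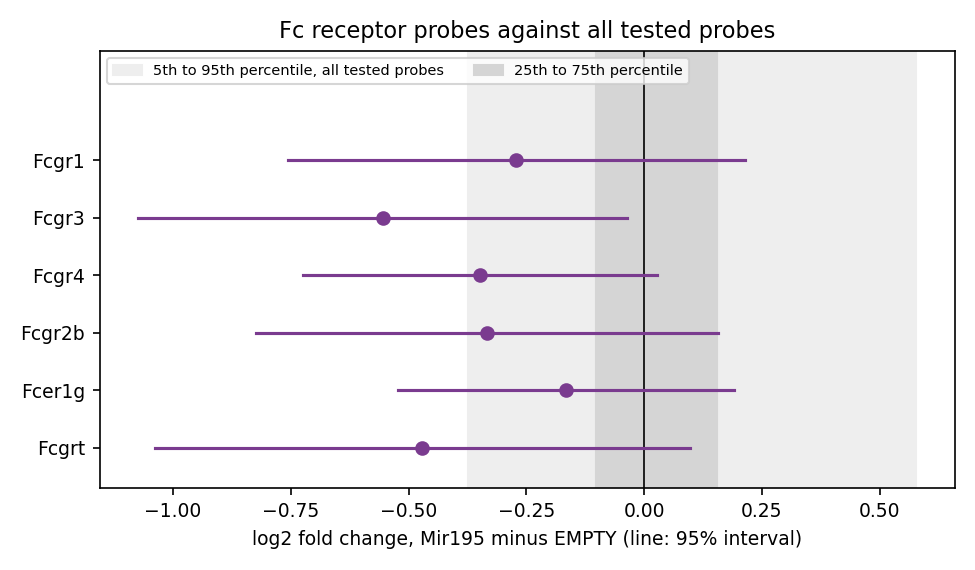
Log2 fold change of each member probe, Mir195 minus EMPTY (points), with its 95% interval from limma (lines), over the 5th to 95th percentile (light grey) and the 25th to 75th percentile (dark grey) of all tested probes. All 6 points lie left of 0, and the interval of Fcgr3 alone, -1.07 to -0.04, does not reach 0.

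Set against all tested probes, Fcgr3, Fcgrt, Fcgr4, Fcgr2b and Fcgr1 lay at the 2.58th, 3.46th, 5.54th, 5.93rd and 7.99th percentile of the log2 fold changes, and Fcer1g at the 15.4th. The median of the 6 was -0.34, beside 0.01 over all tested probes. Of all tested probes, 47% had a lower mean with Mir195.

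To compare activation with inhibition, the log2 value of Fcgr2b was subtracted from that of each activating receptor and of the gamma chain on the same array, and only the change between viruses was read. For Fcgr1 this was -2.87 and -3.08 with EMPTY and -3.33 and -2.50 with Mir195, a change of 0.06 in the mean. That for Fcgr3 was 1.58 and 0.86 with EMPTY and 0.72 and 1.28 with Mir195, a change of -0.22. Since the Fcgr3 value may hold Fcgr2b RNA too, this difference may not set these receptors apart. Fcgr4 gave -2.79 and -3.30 against -3.31 and -2.82, a change of -0.01. With 1 array left out these changes ran from -0.35 to 0.48 for Fcgr1, from -0.58 to 0.14 for Fcgr3 and from -0.27 to 0.24 for Fcgr4, so that a single array turned each direction. In all 3 cases the groups overlapped, and the replicates of 1 virus were farther apart than the means of the viruses. For Fcer1g the difference was 5.51 and 5.33 with EMPTY and 5.51 and 5.67 with Mir195, and the groups overlapped as well, with a change of 0.17. A shift between activating and inhibitory receptors was not detectable with 2 arrays per virus. Measured against the gamma chain in place of Fcgr2b, the changes were -0.11 for Fcgr1, -0.39 for Fcgr3 and -0.18 for Fcgr4, and the groups overlapped each time.

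**Figure D4:**
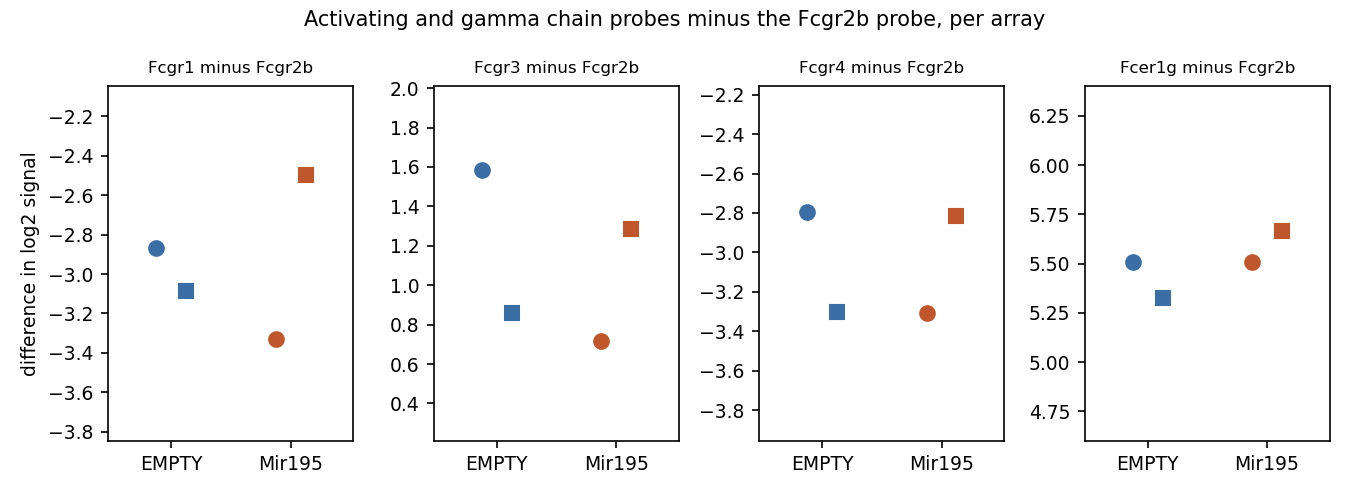
Log2 signal of each activating receptor and of the gamma chain minus that of Fcgr2b on the same array (vertical axis), for EMPTY (blue) and Mir195 (orange); circles are replicate 1 and squares replicate 2. In every panel the orange and blue points overlap, with changes in the mean of 0.06, -0.22, -0.01 and 0.17.

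Over the 4 arrays the members fell into sets with a like profile, given as a description since 4 arrays of 2 viruses leave few degrees of freedom. Fcgr3, Fcgr4 and Fcgrt had EMPTY 1 highest, with r = 0.998 for Fcgr3 and Fcgr4, 0.947 for Fcgr3 and Fcgrt, and 0.936 for Fcgr4 and Fcgrt. Fcgr2b and Fcer1g had EMPTY 2 highest and Mir195 2 lowest, with r = 0.982. Fcgr1 was like neither, with r from -0.039 to 0.681 against the others. By distance between profiles centred on their own mean, over 16632 probes, the 3 probes nearest to Fcgr3 were Tnfrsf9, Try5 and Bcl2a1c. Those nearest to Fcgr4 were Scimp, Wdfy1 and Chdh, and to Fcgrt Il18r1, Glcci1 and Setbp1. Fcgr2b lay nearest to Fbxo44, Gm6034 and Emd, and Fcer1g to Sin3b, Ier3ip1 and Rbmx2. For Fcgr1 they were Tmem171, Plekhg4 and Prm1. Likeness over 4 arrays is common, since 0.697% of those probes had r over 0.95 with Fcgr1 and 8.12% with Fcer1g.

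Fcgr2b, Fcgr3, Fcgr4 and Fcer1g lie near each other on chromosome 1, with the Fc receptor-like genes Fcrlb and Fcrla next to Fcgr2b, whereas Fcgr1 is on chromosome 3 and Fcgrt on chromosome 7. From Fcrlb to Fcer1g, a stretch chosen after the members' values were seen, 11 genes were tested. Of these, members included, 10 had a lower mean with Mir195, where all tested genes gave 47.8%. Of the 7 that are not members, 6 were lower, with a median of -0.12. The groups overlapped for Pcp4l1, Nr1i3, Apoa2 and Tomm40l. Fcrla had the largest change of this stretch, -0.59. Between Fcgr3 and Fcer1g, Cfap126 read 0.24 and 0.54 with EMPTY and 0.07 and 0.08 with Mir195, and Sdhc, a subunit of respiratory complex II, had a change of -0.20. Tomm40l, near Fcer1g, was the one with a higher mean, at 0.15. None of these passed the adjusted threshold in limma, and the lowest adjusted p among them was 0.530.

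Among relatives of the Fc receptors, 9 of 13 genes were tested, of which 6 had a higher and 3 a lower mean, with a median log2 fold change of 0.10, beside 0.01 over all 18956 genes. Non-overlapping groups were higher for 4 and lower for 1, where all genes gave 23% and 14.7%. Fcrla, a soluble Fc receptor-like protein kept inside B cells, read -0.75 and -0.76 with EMPTY and -1.25 and -1.43 with Mir195. Both Mir195 arrays were lower by more than the replicates differed, with a log2 fold change of -0.59 (SE 0.13) and an unadjusted p of 0.00642 by limma, but its adjusted p was 0.530. In the other direction, Fcrl1, a B cell receptor-like protein, changed by 0.48 (SE 0.18) with an adjusted p of 0.590. Pigr, which carries IgA and IgM across epithelia, changed by 0.34 (SE 0.16), and Fcrls by -0.29 (SE 0.32). A second Pigr probe was well above background on none of the 4 arrays, so the Pigr value rests on its bright probe alone. At an unadjusted p under 0.05 there was 1 gene higher and 1 lower, Fcrl1 and Fcrla, where all genes gave 6.35% and 2.19%. The 2 other chains of the IgE receptor, Fcer1a and Ms4a2, which join Fcer1g on mast cells and basophils, were well above background on none of the 4 arrays.

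Of the adaptors with an ITAM and the receptors that use the gamma chain or a like signal, 15 of 19 genes were tested, 6 higher and 9 lower, with a median of -0.08, which was 0.0046 without Mir195 replicate 1. By limma 0 were called, and 1 was higher and 0 lower at an unadjusted p under 0.05. Tyrobp (DAP12), the adaptor most like Fcer1g, read 7.02 and 7.23 with EMPTY and 7.19 and 7.09 with Mir195, a change of 0.02 (SE 0.14). Cd247, the zeta chain, another adaptor with ITAMs, gave 0.10 (SE 0.29) at its brighter probe. For both of these the groups overlapped. The dimmer Cd247 probe disagreed, at -0.36 (SE 0.20) with both Mir195 arrays below both EMPTY arrays. The C-type lectins Clec7a (Dectin-1) and Clec4n (Dectin-2), which sense fungal sugars, had the lowest values, with changes of -0.65 (SE 0.35) and -0.56 (SE 0.39). Each was low on Mir195 1 alone, where Clec4n read -0.38 against 0.76, 0.77 and 0.78 on the other arrays. The highest were Trem2, a lipid receptor of macrophages that uses Tyrobp, at 0.58 (SE 0.35), and Clec4e (Mincle), a gamma chain partner, at 0.56 (SE 0.16) with an adjusted p of 0.530.

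Downstream, 35 of 36 genes of activating signalling were tested, with 17 higher, 18 lower and a median of -0.02. By limma, 0 were called or at an unadjusted p under 0.05 at the brightest tested probe of each gene. Under median scaling 9 were higher and 26 lower, with a median of -0.12. That scaling moved all tested probes down, with 66.9% lower and a median of -0.08. The median was 0.02 without EMPTY replicate 1 and 0.03 without Mir195 replicate 1. Syk, the kinase that binds the ITAM, read 3.62 and 3.70 with EMPTY and 3.52 and 3.45 with Mir195, a change of -0.17 (SE 0.12, adjusted p 0.815). Lyn, which phosphorylates both ITAM and ITIM, changed by -0.05 (SE 0.13). The lowest change was that of Lcp2 (SLP-76), an adaptor below Syk, at -0.43 (SE 0.25), and its groups overlapped. The highest were Plcg1, a phospholipase, at 0.34 (SE 0.16) and the exchange factor Vav2 at 0.25 (SE 0.31). A dimmer Plcg1 probe, well above background on 3 arrays, gave 0.61 (SE 0.13). Its unadjusted p was 0.00619 and its adjusted p 0.53 by limma.

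All 18 genes of inhibitory signalling were tested, with 7 higher, 11 lower and a median of -0.05, which was 0.0017 without Mir195 replicate 2. By limma 0 were called, and 1 was lower at an unadjusted p under 0.05, Siglecg. Inpp5d, the SHIP1 phosphatase that Fcgr2b recruits, read close to level, with 3.53 and 3.56 under EMPTY and 3.50 and 3.54 under Mir195 and a change of -0.03 (SE 0.11). Ptpn6 (SHP-1), a protein phosphatase bound by ITIM receptors, changed by -0.09 (SE 0.13). Siglecg, an inhibitory receptor of B cells, had the lowest change at -0.41 (SE 0.13, adjusted p 0.539), though its dimmer probe gave 0.0068 with overlapping groups, followed by the adaptor Dok3 at -0.31 (SE 0.12). Lilrb4a and Cd300a, inhibitory receptors of myeloid cells, had the highest, at 0.41 (SE 0.28) and 0.31 (SE 0.29). For Lilrb4a the change rested on Mir195 2, which read 3.98 while the other arrays lay between 3.17 and 3.19. The dimmer Lilrb4a probe gave 0.08 (SE 0.26) with overlapping groups.

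The cells that carry Fc receptors were followed by lists of their markers, and the part of these in the receptors' values was not tested. Of the monocyte and macrophage markers, 12 of 14 tested genes had a higher mean, with a median of 0.41. One of them, C1qa at 1.43, was well above background on the Mir195 arrays alone and so was tested only through the group where it is high, and over the genes above background on all 4 arrays the count was 11 of 13 with a median of 0.39. The count over all 14 was 9 under median scaling, and the median was 0.13 without Mir195 replicate 2 and 0.17 without EMPTY replicate 1. By limma, 4 of the 14 were higher and 0 lower at an unadjusted p under 0.05, C1qa among the 4, and 0 were called. Over all genes the shares were 6.35% and 2.19%. The summed linear signal of the list, in units of the 75th percentile, was 60.0 and 56.4 with EMPTY and 60.6 and 63.8 with Mir195. It followed mostly the Mpeg1 probe, with log2 values of 5.43 and 5.27 with EMPTY and 5.41 and 5.48 with Mir195. The defining markers Csf1r and Itgam gave 0.08 (SE 0.14) and 0.05 (SE 0.15) at their brightest probe, with groups that overlapped. Their dimmer tested probes differed from this, with 0.29 and 0.31 for Csf1r and 0.67 and 0.15 for Itgam, and all but the last had both Mir195 arrays above both EMPTY arrays.

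NK cell markers read lower for 10 of 11 genes with a median of -0.23, and for 7 of 11 with a median of -0.10 without EMPTY replicate 1. Without EMPTY replicate 2 it was 11 of 11 with a median of -0.58. Their summed signal of 42.4, 37.4, 31.4 and 35.2 on EMPTY 1, EMPTY 2, Mir195 1 and Mir195 2 ordered the arrays as Fcgr3 and Fcgr4 did. The defining marker Klrd1 changed by -0.13 (SE 0.16) with an adjusted p of 0.908 by limma. At an unadjusted p under 0.05 by limma, 0 of the 11 were higher and 1 lower, where all genes gave 6.35% and 2.19%.

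Of the mast cell and basophil markers, 3 of 12 were tested and 7 were well above background on no array. Of the 3, 1 had a higher and 2 a lower mean, with a median of -0.26, from Cpa3 at -0.65 (SE 0.23), Hdc at -0.26 (SE 0.19) and Tpsb2 at 0.04 (SE 0.17). With 1 array left out the median ran from -0.46 (without EMPTY replicate 2) to -0.12 (without EMPTY replicate 1). The summed signal of this list was 1.27 and 1.39 with EMPTY and 1.30 and 1.095 with Mir195. Neutrophil markers had 6 of 9 tested genes higher and a median of 0.22, or -0.03 without Mir195 replicate 1, with Mpo at 0.72 (SE 0.24) and Ly6g at -0.28 (SE 0.12), and their summed signal was 4.39 and 5.08 with EMPTY and 5.75 and 5.09 with Mir195. For dendritic cell markers 5 of 9 were lower, the median was -0.10 and Itgax changed by -0.10 (SE 0.12), with sums from 287.3 to 309.9 over the 4 arrays. By limma, 3 of the 9 were lower at an unadjusted p under 0.05, where all genes gave 2.19%, and 0 were called. They were Cd209a at -1.79 (SE 0.55), H2-Aa at -0.94 (SE 0.26) and Cd74 at -0.45 (SE 0.15), named after their values were seen. The median of the list was -0.0073 without Mir195 replicate 2.

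B lineage markers, which matter here because B cells carry Fcgr2b, had 8 of 12 tested genes higher and a median of 0.17, and 6 of 12 higher under median scaling. The median was 0.04 in the authors' table and, with 1 array left out, 0.06 without EMPTY replicate 2 and 0.09 without EMPTY replicate 1. Cd79b, a chain of the B cell receptor, changed by 1.18 (SE 0.28, adjusted p 0.530). Its partner chain Cd79a gave -0.37 (SE 0.17) and was well above background on the EMPTY arrays alone. By limma, 4 of the 12 were higher and 0 lower at an unadjusted p under 0.05, where all genes gave 6.35% and 2.19%, and 0 were called. Besides Cd79b they were Rag1 at 0.52, Rag2 at 0.32 and Ms4a1 at 0.39, named after their values were seen. The dimmer Rag1 and Rag2 probes gave 0.68 and 0.30. The study had named Cd79b, Rag1 and Rag2 from these same arrays. The sums of the list were 18.5 and 18.2 with EMPTY and 17.8 and 19.2 with Mir195. They followed mostly the Ebf1 probe and the Blnk probe, which had log2 values of 3.64 and 3.63 with EMPTY and 3.52 and 3.56 with Mir195. Markers of OP9 stroma were higher for 7 of 7 genes with a median of 0.31, and lower for 6 of 7 without Mir195 replicate 2. Their sum was 17.4 on Mir195 2, the array on which Fcgr2b and Fcer1g were lowest, and 9.46 to 10.7 on the others. The Col1a1 probe changed by 0.14 (SE 0.29).

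**Figure D5:**
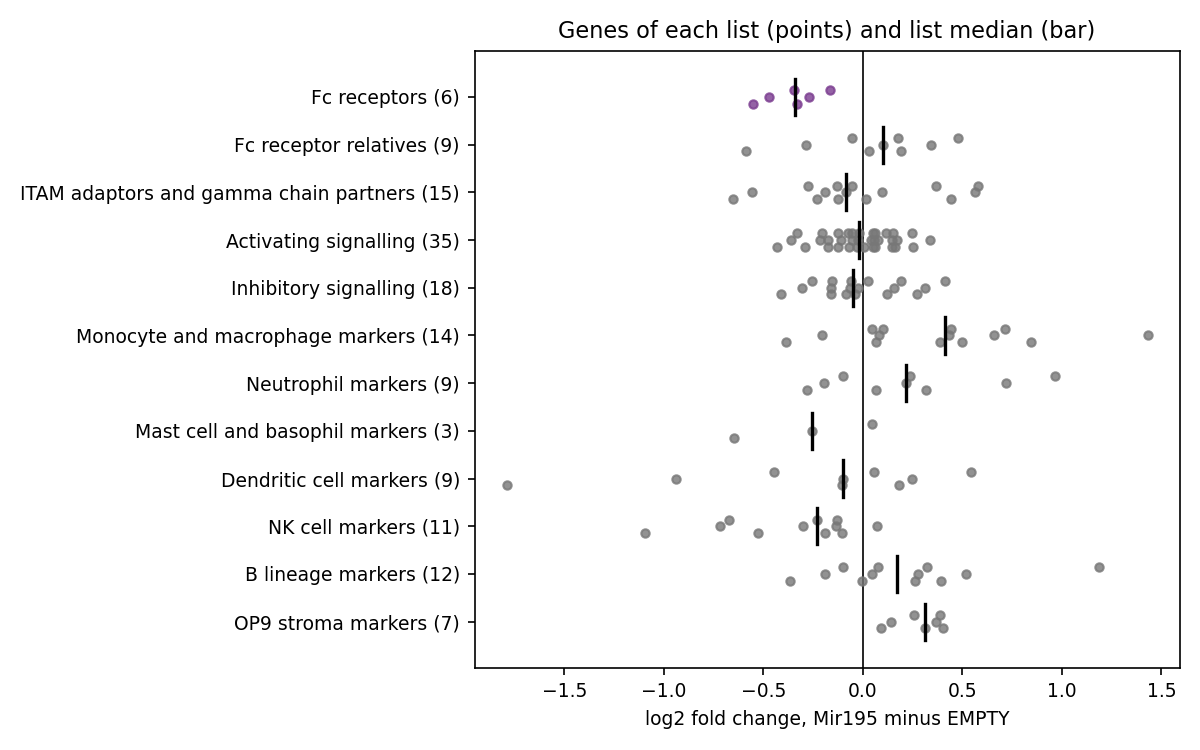
Log2 fold change, Mir195 minus EMPTY (horizontal axis), of every tested gene of each list (points, number of genes in brackets) with the median of the list (bar). The 6 Fc receptors all lie below 0 with a median of -0.34, while the signalling lists centre near 0 and the monocyte and macrophage markers have a median of 0.41.

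Across the series, each array had 23658 to 24672 of its 39429 probes well above background, and the number of arrays limits the precision. The lowest adjusted p of any probe was 0.101, and 1979 probes had an unadjusted p under 0.05 by limma. EMPTY 2 and Mir195 1 were the most alike pair of arrays, with a median absolute difference of 0.0951 on the log2 scale, against 0.147 between the EMPTY arrays and 0.194 between the Mir195 arrays. All 4 arrays shared a slide, with EMPTY in the first positions and Mir195 in the last, so position and virus cannot be told apart. The Ebf1 probe read 1.85 to 2.03 on the 4 arrays. The part of the gene it covers is not given in the sources used here, so it does not check the deletion. The level of the microRNA was not analysed here.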

How the data were processed

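RNA of 4 samples, 100 ng each, was labelled with Cy3 and hybridised to Agilent Whole Mouse Genome 4x44K v2 arrays. The deposited scanner files hold spot intensity; the background and spatial trend were removed from gProcessedSignal by Agilent Feature Extraction (9.1.3.1 per the file headers, 11.5.1.1 in the submitters' processing notes). The authors also deposited a table of log2 values scaled to the 75th percentile of each array, with its zero point unstated; its columns had medians of -4.45, -4.42, -4.41 and -4.29, and it correlated with the scanner values at r = 0.998 on each array. Here log2 of the processed intensity was taken minus each array's 75th percentile, spots of a probe were averaged, and control and outlier spots were left out. A probe was tested if both arrays of either virus were well above background and no array had an outlier spot (23723 probes), with limma 3.58.1 in R 4.3.3, two-sided, with Benjamini-Hochberg adjustment. The script was tested on simulated data. With 2 arrays against 2, an exact permutation test of a single probe cannot go below p = 0.333. Outdated names were updated through accessions (26055 probes matched GRCm38.p6), and a list gene was represented by its brightest tested probe.

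The 6 members and all gene lists were chosen with earlier results of these data known. Named were all member probes, set key genes of each list, any list gene past the threshold and the 2 highest and 2 lowest changes of each pathway list. The defining markers and the 3 probes of nearest profile were named too. Genes of the chromosome 1 stretch and further genes of the marker lists were added after their values were seen. Some genes that this rule names are not reported here. Alternatives were normexp correction (offset 50), quantile, median and detected-probe scaling, the authors' table, looser and stricter filters, trend with robust variance, a replicate block, the methods' t-test on log2 ratios and leaving out each array. Figures were drawn with matplotlib 3.10.9.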

Additional observations from a re-analysis of the deposited data

How the results depend on the processing

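Of the 15 alternatives, 6 (the filters, trend with robust variance, both blocks and the t-test) cannot move a fold change. In the other 9 the 6 member probes read lower with Mir195, and they were uncalled in all 15, with log2 fold changes of -0.50 to -0.05 for Fcgr1, -0.79 to -0.32 for Fcgr3, -0.47 to -0.18 for Fcgr4, -0.53 to -0.14 for Fcgr2b, -0.28 to -0.05 for Fcer1g and -0.75 to -0.19 for Fcgrt, and the lowest adjusted p among them was 0.218, for Fcgr2b without Mir195 replicate 1. With 1 array left out, the lone array was assumed to vary like the other group's. The number of member probes whose groups do not overlap was 4 of 6 under normexp, where Fcgr1 and Fcer1g overlapped, and 5 with the authors' table and with scaling over detected probes. Over all tested probes, 3 were called with median scaling and 0 to 900 when 1 array was left out (900 without Mir195 replicate 1, 3 without Mir195 replicate 2), and the cause was not tested. The methods' t-test was run as a one-sample test of the log2 ratios, formed here between replicates of the same number. It left 0 after Benjamini-Hochberg adjustment and 1133 at an unadjusted p under 0.05. The share of probes with non-overlapping lower groups was 25.6% under median scaling and 10.4% under normexp, which moved the median of all probes to -0.08 and 0.07. At an unadjusted p under 0.05, 336 probes were lower and 3417 higher under normexp, and 808 and 1112 under median scaling.

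The median of the Fc receptor relatives was 0.20 under normexp and 0.00062 under median scaling. Under median scaling the medians were -0.18 for the ITAM adaptors and partners, -0.12 for activating and -0.15 for inhibitory signalling, beside -0.08 over all tested probes. With 1 array left out the medians ranged from -0.087 to 0.0046 for the adaptors and from -0.12 to 0.0017 for inhibitory signalling.

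Same-numbered replicates did not deviate together (r = -0.101 across tested probes), so the numbers were not taken as pairs in the main test. Only the t-test and the replicate block used them. With the replicate block 5 probes were called, 0 of them members; the block left the members' fold changes as they were, and the adjusted p of Fcgr3 was 0.483. With the numbers crossed, a choice made after seeing the data, 0 were called.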
